A study of Homo sapiens with 9 samples.

Results

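The mature miRNAs described here are the products of the mir-28 precursor family: hsa-miR-28-5p, hsa-miR-28-3p, hsa-miR-151a-5p, hsa-miR-151a-3p and hsa-miR-708-5p, written without the species prefix from here on. They were taken by their mature names from a table of raw small RNA counts, in which they hold 5 of 2883 rows. Of these 5 members, 4 had counts and passed the filter on low counts, and miR-708-5p had 0 counts in every library. The small RNA libraries came from Jurkat (clone E6-1), a human T lymphoblast cell line derived from a leukaemia that is widely used to study signalling by the T cell receptor. Cells activated for 5 h or 12 h were on plates coated with antibody to CD3 (10 µg/mL), the part of the T cell receptor complex that carries its signal, with antibody to CD28, a costimulatory receptor, in the medium (5 µg/mL), and they were set against unactivated cells (0 h). Each time had 3 biological replicates of this single line, and with no unactivated cells collected at 5 h or 12 h, activation cannot be told apart from time in culture or handling.

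A miRNA precursor is cut to a duplex, and either strand, the 5p or the 3p arm, can be loaded into an Argonaute protein and guide it to mRNAs that pair with the seed, bases 2 to 8 of the miRNA. The mir-28 family derives from an old repeat element and its members are known to lie in introns of protein-coding genes. miR-28 has been studied mostly in lymphocytes, where it is known as a miRNA of germinal centre B cells that is often lost in B cell lymphoma, and, in mouse T cells, as a repressor of the checkpoint receptor PD-1. miR-151a is known in liver cancer, where it is made together with the kinase FAK encoded by its host gene. miR-708-5p has been described in acute lymphoblastic leukaemia and in epithelial tumours.

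In the GENCODE annotation of GRCh38, MIR28 lay on chromosome 3 (chr3:188688781-188688866, plus strand) in an intron of LPP, on the same strand as this gene for a focal adhesion protein. MIR708 lay on chromosome 11 (chr11:79402022-79402109, minus strand) in an intron of TENM4, also on the strand of its host, and MIR151A lay in an intron of PTK2, which encodes FAK. A related precursor, MIR151B, lay on chromosome 14 (chr14:100109419-100109514, minus strand) in an intron of EVL but on the strand opposite to that gene. Its product miR-151b and the other arm of miR-708 are not members and were taken as relatives.

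RefSeq sequences (GRCh38.p14), shown here because the 3p arms of miR-28 and miR-708 are close kin while miR-28-3p was abundant and miR-708-3p had 0 counts in every library, were printed for 2 of the 5 members and 1 of the 2 relatives. Each is written 5′ to 3′ with the seed in capitals.
miR-28-3p: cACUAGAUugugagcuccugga
miR-708-3p: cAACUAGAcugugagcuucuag
miR-708-5p: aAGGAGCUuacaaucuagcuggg
With miR-708-3p shifted by 1 base, 17 of 21 aligned bases of miR-28-3p and miR-708-3p were identical, and their longest shared run was 8 bases (ugugagcu). The shift puts their seeds out of register: miR-28-3p had the seed ACUAGAU and miR-708-3p had AACUAGA. No other RefSeq mature miRNA among those compared carried the seed of miR-28-3p or that of miR-708-3p. The seed of miR-708-5p, AGGAGCU, was found among those compared in 1 other, miR-3139, which had 0 counts in every library. miR-28-5p, both arms of miR-151a and miR-151b were not among those compared. The comparison therefore cannot show whether miR-28-5p, the most abundant member, or these others carry the seed of miR-708-5p.

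Total counts ranged from 6631839 to 16207031 per library, and levels are in CPM, the count of a row per 1000000 counts in the library after TMM scaling. Levels of 2 miRNAs in CPM compare numbers of reads, and capture during library preparation can differ between sequences. The 2 shallowest libraries were replicate 3 of 0 h (7083813 counts) and replicate 3 of 12 h (6631839 counts). The haematopoietic miRNAs miR-142-3p (7424 to 10980 CPM) and miR-181a-5p (25488.5 to 41677 CPM) were abundant in every library. Others on the haematopoietic list were lower: miR-142-5p had 1261 to 1639 CPM, miR-150-5p 230 to 280 CPM and miR-155-5p 0.579 to 12.7 CPM. miR-205-5p of epithelia, miR-1-3p, miR-133a-3p and miR-206 of muscle and miR-124-3p of neurons had 0 counts in all libraries. Some markers of other cells were present: miR-200c-3p of epithelia had 66.3 to 127 CPM, miR-9-5p of neural tissue 107 to 199 CPM and miR-223-3p of myeloid cells 106 to 157 CPM. miR-122-5p of liver ranged from 0 to 66.8 CPM, and the part of such RNA in the values of the members was not tested.

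The family was carried by miR-28 and miR-151a. miR-28-5p was the most abundant member at 2456 ± 227 CPM (SD over 9 libraries), rank 31 of 626 tested mature miRNAs. miR-151a-5p followed at 1721 ± 360 CPM (rank 37), then miR-28-3p at 1199 ± 214 CPM (rank 45), and miR-151a-3p was far lower at 136 ± 14.9 CPM (rank 108). The relative miR-151b had 45.4 ± 11.2 CPM (rank 150). The order was the same in each library: miR-28-5p exceeded miR-151a-5p in 9 of 9 libraries, by 1.14-fold to 1.71-fold, and miR-151a-5p exceeded miR-28-3p in 9 of 9, by 1.1496-fold to 2.17-fold. Across libraries, however, the ranges of these neighbours overlapped, with 2182 to 2826 CPM for miR-28-5p, 1330.1 to 2303 CPM for miR-151a-5p and 917 to 1461 CPM for miR-28-3p. The step from miR-28-3p down to miR-151a-3p, at 6.89-fold to 10.97-fold within a library, was larger than the spread of either.

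**Figure D1:**
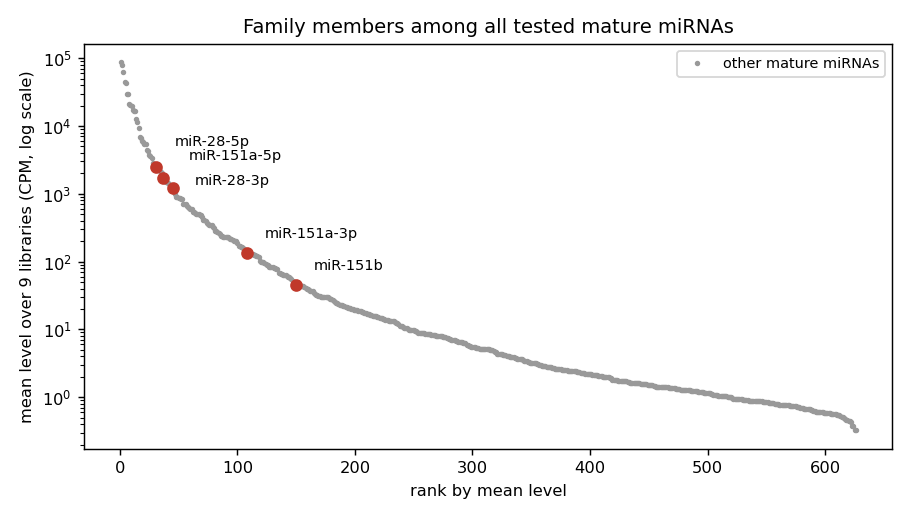
Mean level of each of 626 tested mature miRNAs over 9 libraries (vertical axis, CPM, log scale) against its rank (horizontal axis), with miR-28-5p, miR-28-3p, miR-151a-5p, miR-151a-3p and miR-151b in red. The 3 most abundant members lie close together at ranks 31 to 45, and miR-151a-3p lies at rank 108.

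miR-708-5p, and miR-708-3p with it, had 0 counts in each of the 9 libraries before and after activation. A limit of 3 counts corresponds to 0.176 CPM in the deepest library and 0.471 CPM in the shallowest, and over the 3 libraries of a time to 0.0852 CPM at 0 h, 0.0800 CPM at 5 h and 0.0949 CPM at 12 h. Such limits allow for counting error alone, because reads that carry no molecular identifier may be copies of one molecule. Within a library miR-28-5p was at least 5596-fold above a limit of 3 counts for miR-708-5p. The TENM4-hosted branch of the family was not detectable at this depth at any of the 3 times, and no fold change can be given for it.

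The first comparison asks whether the members differ 5 h after activation. At 5 h, replicates 1, 2 and 3 had 2204, 2182 and 2355 CPM of miR-28-5p, the more abundant product of the LPP-hosted precursor, against 2826, 2460.2 and 2598 CPM at 0 h. Each library at 5 h lay below each at 0 h, while at 12 h the replicates had 2232, 2612.5 and 2634 CPM and lay across the range of 0 h. The 5 h mean of 2247 ± 94.3 CPM was 0.86 times the 0 h mean of 2628 ± 185 CPM (log2 change -0.23, SE 0.11, 95% interval -0.46 to 0.0040, n = 3 each), and it did not pass the test (edgeR adjusted p = 0.695, unadjusted p = 0.0537). Without replicate 1 of 0 h, the highest library, the log2 change was -0.14 (unadjusted p = 0.280). Among all tested rows, 28 of 701 (3.99%) had all 5 h libraries below all 0 h libraries.

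miR-151a-5p, the dominant product of the PTK2-hosted precursor on chromosome 8, had 1544, 1330.1 and 1483 CPM in replicates 1, 2 and 3 at 5 h, against 1986, 1443 and 2236 CPM at 0 h. The groups overlapped through replicate 2 of 0 h, the lowest of the unactivated libraries. The 5 h mean was 0.77 times that of 0 h (log2 change -0.38, SE 0.16, 95% interval -0.72 to -0.037) and did not pass (edgeR adjusted p = 0.695, unadjusted p = 0.0318). Without replicate 3 of 0 h, the log2 change was -0.24 (unadjusted p = 0.154), and without replicate 2 of 0 h it was -0.58 (edgeR adjusted p = 0.0846).

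For the less abundant arms the fitted changes at 5 h were nearer 0. miR-28-3p had 1302, 921 and 1057 CPM at 5 h, against 917, 1077 and 1391 CPM at 0 h, and the groups overlapped fully (log2 change -0.045, SE 0.15, 95% interval -0.37 to 0.28, edgeR adjusted p = 0.996). The sign of this change turned with library totals as the only scaling, where the log2 change was 0.029. miR-151a-3p had 127, 134 and 129 CPM at 5 h, against 121, 145 and 153 CPM at 0 h (log2 change -0.11, SE 0.17, 95% interval -0.46 to 0.25, edgeR adjusted p = 0.996). The 3 libraries at 5 h were close together and lay within the span of 0 h.

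At 5 h, 0 of 4 tested members passed, against 11 of 701 rows (1.57%) in the whole table. At an unadjusted p of 0.05, edgeR counted 1 member, against 5.99% of all rows in edgeR. DESeq2 counted 2 members and limma-voom 1, and their shares over all rows are not given here. None passed after adjustment in any of these tools. The median log2 change was -0.17 over the 4 members and 0.029 over the 701 rows.

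**Figure D2:**
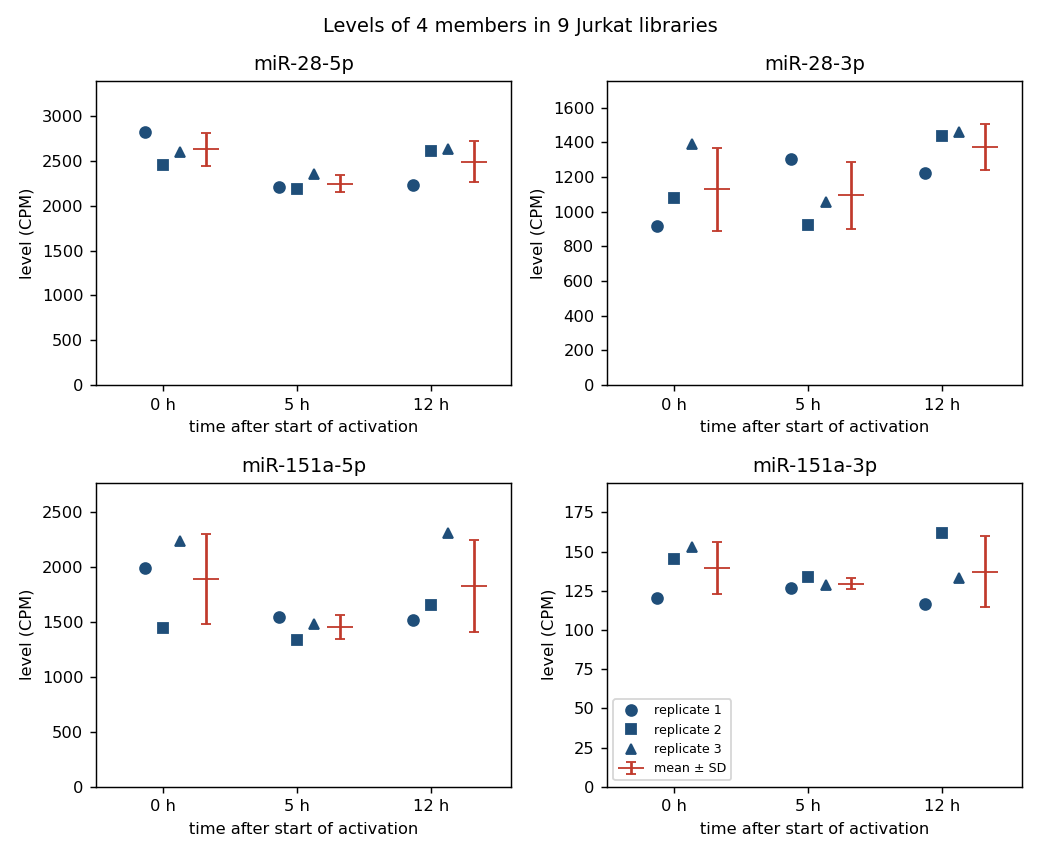
Level of each of 4 members (CPM, vertical axes from 0) in each library at 0 h, 5 h and 12 h, with a symbol per replicate number and the mean ± SD in red (n = 3 each). The libraries of miR-28-5p at 5 h all lie below those at 0 h, and replicate 3 of 0 h and of 12 h are the highest for miR-151a-5p.

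The second comparison sets 12 h against the unactivated cells. miR-28-5p was at 2493 ± 226 CPM at 12 h, against 2628 ± 185 CPM at 0 h (log2 change -0.076, SE 0.11, 95% interval -0.31 to 0.15, edgeR adjusted p = 0.974). The interval places a fold change between 0.81 and 1.11. miR-151a-5p had 1514, 1655 and 2303 CPM at 12 h, against 1986, 1443 and 2236 CPM at 0 h, and the groups overlapped (log2 change -0.050, SE 0.16, 95% interval -0.39 to 0.29, edgeR adjusted p = 0.991). miR-151a-3p had 117, 162 and 133 CPM at 12 h, against 121, 145 and 153 CPM at 0 h, which differ by less than the spread between replicates (log2 change -0.024, SE 0.17, edgeR adjusted p = 0.992). The signs of all 3 of these changes were positive with upper quartile factors, at 0.079 for miR-28-5p, 0.10 for miR-151a-5p and 0.14 for miR-151a-3p. That scaling raised the median of all rows by 0.16, and all 3 values were below that shift. With library totals alone the change of miR-151a-3p was 0.025.

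miR-28-3p was the member with a positive fitted change at 12 h against 0 h. Its replicates had 1221, 1439 and 1461 CPM at 12 h, against 917, 1077 and 1391 CPM at 0 h, and replicate 3 of 0 h lay among the 12 h libraries. The log2 change was 0.28 (SE 0.15, 95% interval -0.039 to 0.61) and did not pass (edgeR adjusted p = 0.752, unadjusted p = 0.0814). Leaving out replicate 1 of 0 h gave 0.15 (edgeR adjusted p = 0.962), and leaving out replicate 3 of 0 h gave 0.47 (edgeR adjusted p = 0.235). At 12 h 0 of 4 members passed, against 10 of 701 rows (1.43%) in the whole table. At an unadjusted p of 0.05 edgeR counted 0 members, against 7.28% of all rows in edgeR. DESeq2 counted 0 members and limma-voom 1, without a share over all rows for either tool. The comparisons at 5 h and 12 h share the 0 h libraries.

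The third comparison asks what differs between 12 h and 5 h. The fitted change was positive for each of the 4 tested members, with a median log2 change of 0.24, against -0.032 over the 701 rows. This comparison shares the 5 h libraries with the first, in which the fitted change of each tested member was negative. miR-28-3p had 1221, 1439 and 1461 CPM at 12 h, against 1302, 921 and 1057 CPM at 5 h, with replicate 1 of 5 h inside the range of 12 h (log2 change 0.33, SE 0.15, 95% interval 0.0055 to 0.65, edgeR adjusted p = 0.720, unadjusted p = 0.0466). miR-151a-5p had a log2 change of 0.33 as well (SE 0.16, 95% interval -0.013 to 0.67, edgeR adjusted p = 0.720), which became 0.11 without replicate 3 of 12 h. The log2 change was 0.15 for miR-28-5p (SE 0.11, 95% interval -0.080 to 0.38) and 0.082 for miR-151a-3p (SE 0.17, 95% interval -0.27 to 0.44), and each had an edgeR adjusted p of 1. For miR-151a-3p it was -0.051 without replicate 2 of 12 h. In all, 0 of 4 members passed, against 4 of 701 rows (0.571%). At an unadjusted p of 0.05 edgeR counted 1 member, against 6.13% of all rows in edgeR. DESeq2 and limma-voom each counted 1 member, without a share over all rows for either tool.

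**Figure D3:**
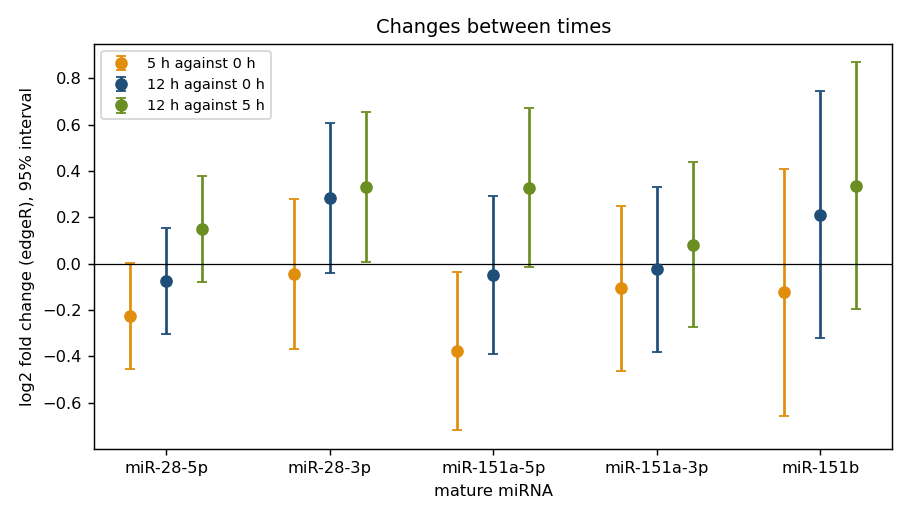
Log2 fold change with its 95% interval from the edgeR fit (vertical axis) for 4 members and miR-151b (horizontal axis) at 5 h against 0 h, 12 h against 0 h and 12 h against 5 h. The intervals of miR-28-5p are the narrowest, and the point farthest below 0 is miR-151a-5p at 5 h against 0 h, at -0.38.

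A test of any difference among the 3 times gave an edgeR adjusted p of 0.857 for miR-28-5p, miR-28-3p and miR-151a-5p and 0.999 for miR-151a-3p, while 12 of 701 rows (1.71%) passed it. A p that misses the threshold does not show that a level stayed the same. The intervals, which are not adjusted for the number of tests, show what could have been missed. At 5 h against 0 h, the interval of the fold change was 0.73 to 1.003 for miR-28-5p and 0.61 to 0.97 for miR-151a-5p. For miR-28-3p it was 0.97 to 1.52 at 12 h against 0 h. At 12 h against 5 h it was 1.004 to 1.57 for miR-28-3p and 0.99 to 1.59 for miR-151a-5p.

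The members also differed in how tightly their replicates agreed. Among the 119 mature miRNAs with a mean of at least 100 CPM, the median SD of log2 CPM within a time was 0.16. miR-28-5p had an SD of 0.10, and 20 of the 119 had a smaller one. miR-151a-3p was near the middle with 0.17. miR-28-3p, at 0.24, and miR-151a-5p, at 0.27, were among the more variable, with 94 and 104 of the 119 below them. For miR-151a-5p the highest levels were those of the 2 shallowest libraries, replicate 3 of 12 h at 2303 CPM and replicate 3 of 0 h at 2236 CPM. The part of depth in this was not tested. With both of these libraries left out, the log2 changes of miR-151a-5p were -0.24 at 5 h against 0 h, -0.13 at 12 h against 0 h and 0.11 at 12 h against 5 h.

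miR-151b is close in sequence to the 5′ part of miR-151a-5p, and reads of the 2 could have been divided between their rows by the authors' counting. The row of miR-151b may therefore hold reads of miR-151a-5p. It had 40.6, 40.7 and 72.7 CPM in replicates 1, 2 and 3 at 12 h, 42.9, 37.3 and 41.4 CPM at 5 h, and 39.5, 40.1 and 53.2 CPM at 0 h, so that replicate 3 of 12 h and of 0 h were the highest here too. No comparison passed (log2 change -0.12 at 5 h against 0 h and 0.21 at 12 h against 0 h, edgeR adjusted p = 0.996 and 0.974). Its counts were 1.99% to 3.15% of those of miR-151a-5p over the 9 libraries, and at 5 h the 3 libraries had 2.78%, 2.80% and 2.79%. With both rows summed, 0 of 4 tested members passed in each of the 3 comparisons. Of the 2 relatives, 1 was tested and did not pass, and miR-708-3p was at 0.

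The 2 arms of a precursor are read in the same library, and their ratio does not depend on how libraries are scaled. The 5p arm was the more abundant in both precursors. In miR-28 the 5p arm held 70.1% ± 5.21 (SD, n = 3) of the counts of both arms at 0 h, 67.4% ± 3.99 after 5 h and 64.5% ± 0.162 after 12 h. In miR-151a it held 92.9% ± 1.82, 91.8% ± 0.804 and 92.8% ± 1.72 at the same times. Among 165 precursors with both arms tested, the 5p arm was the more abundant in 88. A larger mean 5p to 3p ratio than that of miR-28 was seen in 76 of the 165, and than that of miR-151a in 51.

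For miR-28 the count of the 5p arm was 1.83, 1.82 and 1.80 times that of the 3p arm in replicates 1, 2 and 3 at 12 h, 1.69, 2.37 and 2.23 times at 5 h, and 3.08, 2.28 and 1.87 times at 0 h. The 12 h libraries were close together and lay below each 0 h library, the nearest being replicate 3 of 0 h. In 12 of 165 precursors (7.27%) all ratios at 12 h lay below all those at 0 h. The change of the ratio at 12 h was -0.38 on the log2 scale (SE 0.30, 95% interval -1.08 to 0.32) and did not pass (limma adjusted p = 0.819). It was -0.19 without replicate 1 of 0 h and -0.55 without replicate 3 of 0 h. Among the 18 precursors with at least 100 CPM in both arms, an alternative chosen after seeing the data, the SE was 0.20, the interval -0.79 to 0.034 and the limma adjusted p 0.317. At 5 h against 0 h the change was -0.19 (SE 0.30, limma adjusted p = 0.930), and without replicate 1 of 0 h it was 0.0066.

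For miR-151a the 5p arm was 12.95, 10.2 and 17.3 times the 3p arm in replicates 1, 2 and 3 at 12 h, 12.2, 9.95 and 11.5 times at 5 h, and 16.5, 9.92 and 14.6 times at 0 h. Replicate 2 was the lowest at each time, and the 3 times overlapped. The ratio changed by -0.26 on the log2 scale at 5 h against 0 h (SE 0.33, limma adjusted p = 0.922) and by -0.020 at 12 h against 0 h (limma adjusted p = 0.984). The change at 5 h was -0.11 without replicate 1 of 0 h and -0.47 without replicate 2 of 0 h. Over all 165 precursors, 0 passed in each of the 3 comparisons with limma, and 6.67%, 8.48% and 6.67% had an unadjusted p under 0.05 at 5 h against 0 h, 12 h against 0 h and 12 h against 5 h.

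**Figure D4:**
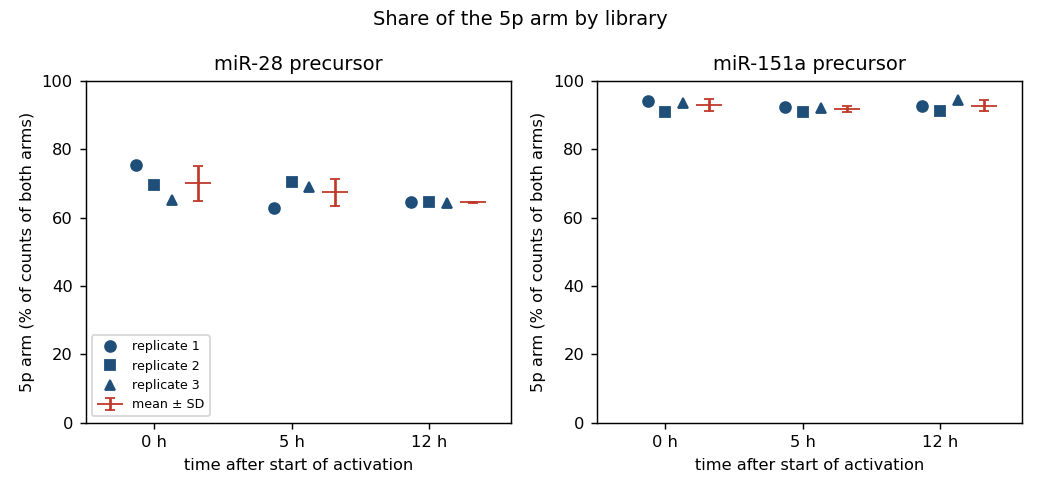
Share of the 5p arm among the counts of both arms (percent, vertical axes from 0 to 100) in each library at 0 h, 5 h and 12 h, for the precursors of miR-28 and miR-151a, with the mean ± SD in red (n = 3 each). The share in miR-28 spreads most at 0 h and least at 12 h, where it is 64.5% ± 0.162, and that in miR-151a stays above 90% in each library.

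The miRNAs whose profiles over the 9 libraries were most like those of the members were found by Pearson's r of log2 CPM, over 240 other mature miRNAs with at least 10 CPM. These values describe libraries that share depth and time and carry no test. miR-151a-5p was most like miR-4449 (r = 0.98) and miR-93-5p (r = 0.96), a member of the miR-106b cluster. miR-93-5p had its highest levels in the same pair of libraries, with 23663 CPM in replicate 3 of 12 h and 22361 CPM in replicate 3 of 0 h, against 14108 to 18503 CPM in the others. miR-28-5p was also most like miR-4449 (r = 0.78), followed by miR-128-2-5p (r = 0.78). miR-28-3p was most like miR-362-5p (r = 0.80) and miR-548l (r = 0.77), and miR-151a-3p most like miR-320c (r = 0.86) and miR-191-5p (r = 0.76). None of these 7 miRNAs passed in any of the 3 comparisons by edgeR. Between members, miR-28-5p and miR-151a-5p, the dominant arms of different precursors, had r = 0.76, whereas the 2 arms of miR-28 had r = 0.15 and the 2 arms of miR-151a r = 0.16.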

How the data were processed

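RNA was purified on columns and made into libraries with a RealSeq kit, per the labels' protocols. The authors deposited raw counts per pair of precursor and mature miRNA (2883 rows), and log2 values for the 430 rows above 0 in all 9 libraries. Those deposited log2 values equal log2 of the scaled count plus 1 to within 5.05e-09. The submitters' processing notes name GRCh38.p13 and DESeq2. The aligner was not given in the sources used here.

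Samples were grouped by their titles. Counts were filtered with filterByExpr (minimum count 10, minimum total 15; 701 rows kept), scaled by TMM and fitted in edgeR 4.0.16 (R 4.3.3) by quasi-likelihood with 1 mean per time over all 9 libraries. Benjamini-Hochberg adjustment ran over all 701 rows, with a threshold of 0.05. The SE is derived from the test, and intervals are 95%. Log2 ratios of the 5p over the 3p arm (prior count 2) were tested with limma 3.58.1 over 165 precursors. Alternatives were other scalings and filters, DESeq2 1.42.0, limma-voom, 2 groups only, the replicate number as a block, 1 row per mature name, deposited log2 values, and libraries left out. The fits were also run on simulated data whose nonzero changes were larger than those fitted for the members. Their power at the sizes fitted for the members was not tested.

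The members and lists were chosen with earlier results of these data known. Members were all named; for each, the 2 other miRNAs with the highest r were named. The markers were a list of 20 miRNAs of blood and other tissues. Replicates differed beyond sampling noise (chi-square over degrees of freedom 83.6 or more). Positions are from GENCODE 29 (GRCh38), and figures used Python 3.11.15 and matplotlib 3.10.9.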

Additional observations from a re-analysis of the deposited data

How the results depend on the processing

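No member passed the threshold in any of the 3 comparisons under any of 22 alternatives. The smallest adjusted p among them was 0.0846, for miR-151a-5p at 5 h against 0 h in edgeR without replicate 2 of 0 h. Of 342 recomputed log2 changes, 324 kept their sign and 18 changed sign, and none passed the threshold. The cause was not tested. With library totals alone the log2 change was 0.029 for miR-28-3p at 5 h against 0 h and 0.025 for miR-151a-3p at 12 h against 0 h. With upper quartile factors it was 0.079, 0.10 and 0.14 at 12 h against 0 h for miR-28-5p, miR-151a-5p and miR-151a-3p. Without the 2 shallowest libraries it was 0.13 for miR-28-3p at 5 h and 0.055 for miR-151a-3p at 12 h, both against 0 h. With single libraries left out, the ranges that crossed 0 were -0.23 to 0.13 for miR-28-3p at 5 h against 0 h, -0.29 to 0.10 for miR-151a-5p and -0.18 to 0.048 for miR-151a-3p at 12 h against 0 h, and -0.051 to 0.16 for miR-151a-3p at 12 h against 5 h. For the arm ratio they were -0.36 to 0.0066 for miR-28 at 5 h and -0.23 to 0.16 for miR-151a at 12 h, both against 0 h. Among the changes in level that kept their sign, the ranges were -0.30 to -0.14 for miR-28-5p and -0.58 to -0.24 for miR-151a-5p at 5 h against 0 h, and 0.15 to 0.47 for miR-28-3p at 12 h against 0 h. At 12 h against 5 h they were 0.092 to 0.20 for miR-28-5p, 0.25 to 0.49 for miR-28-3p and 0.11 to 0.42 for miR-151a-5p.

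Whether the replicate numbers pair the samples could not be settled by correlations between libraries. Deviations were correlated above 0.1 in 3 of 9 same-numbered pairs and in 8 of 18 other pairs. Of the 9 libraries, 5 correlated best with their own number. With the number as a block, miR-151a-5p at 5 h against 0 h had a log2 change of -0.36 (edgeR adjusted p = 0.181, unadjusted p = 0.00582). Without the block its unadjusted p in edgeR was 0.0318. With the block 0 members passed, while 11 of 701 rows passed at 12 h against 5 h, against 4 without it. Depth limits miR-708-5p to the levels that 3 counts allow.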
